A study of Mus musculus with 8 samples.

Results

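Skeletal muscle fibres are built from contractile proteins and powered by muscle-type enzymes, and the 44 genes described here encode such proteins. They were taken as a fixed list of gene symbols, matched to the identifiers of the deposited tables, and all 44 were found among 57180 genes. For description they were sorted by known role into 11 genes of the fast contractile program, 8 slow isoforms, 4 isoforms typical of developing muscle or heart, 5 filament genes shared by fibre types, 9 genes of the Z-disc and of sarcomere assembly, and 7 genes of fibre metabolism.

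The RNA came from muscle stem cells, the resident precursors of skeletal muscle, which were sorted by flow cytometry from mice and sequenced without culture. The control group (genotype WT) held 4 libraries, replicates 2, 5, 7 and 8. The RhoA het group held 4 libraries, replicates 5, 6, 7 and 8; the design text gives their genotype as SC-RhoAfl/+, a floxed RhoA allele beside an intact one, and the sample labels call it a RhoA knockdown. RhoA is a small GTPase that controls assembly of actin filaments, and the study asked how lowering its activity changes gene expression and splicing. The Cre driver, the age and sex of the mice, the number of mice per library and what a replicate number stands for are not given in the sources used here, so p-values measure the spread between these libraries, which may in part be technical.

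A sarcomere is the repeating contractile unit of a muscle fibre: thick filaments of myosin pull on thin filaments of actin, tropomyosin and troponin, and alpha-actinin anchors the thin filaments at the Z-disc. Fast and slow fibres use different isoforms of most of these proteins, and embryonic isoforms come before both in development and return in regeneration. Quiescent muscle stem cells are mononucleate and have no sarcomeres, and the full contractile program is switched on when their progeny differentiate and fuse.

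Each library held 19138763 to 25606342 fragments assigned to genes, and the members took 0.230% to 0.403% of them. The sorted cell type was checked with 9 stem cell markers, all detected in every library; Pax7 stood at 46.6 to 100.1 TPM and Myod1 at 1733 to 2992 TPM. The targeted gene, Rhoa, had 132, 148, 121 and 136 TPM in control and 117, 111, 112 and 125 TPM in RhoA het, and in edgeR, which tests fragment counts across all genes, its log2 fold change (RhoA het over control, as for every fold change below) was -0.29 (SE 0.13, 95% confidence interval -0.59 to -0.00080) with an adjusted p of 1. Control replicate 2 and RhoA het replicate 6, the libraries whose number is not shared between groups, held 14358 and 14659 fragments of 4 Y-linked genes, and the other 6 libraries held 0 to 2. Of Xist, a transcript of female cells, these libraries held 5 and 7 fragments, and the other 6 held 3539 to 5188. These counts mark control replicate 2 and RhoA het replicate 6 as male and the other 6 libraries as female. No fit included sex. Control replicate 2 had the lowest TPM (fragments per gene length, scaled to a common total in each library) for 41% of the 15660 genes tested, so a low TPM there is common to many genes. Below, the 4 values of a group follow the order of its replicates as listed above.

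The members spanned a wide range of levels. Of the 44, 3 averaged at least 500 TPM over the 8 libraries, 13 averaged 10 to under 500 TPM, 16 averaged 1 to under 10 TPM and 12 averaged under 1 TPM. The 3 most abundant were Cryab, a small heat shock protein that protects filaments and works in many cell types, Des, the intermediate filament protein desmin, and Aldoa, an aldolase of glycolysis used by most tissues. Their means were 1524, 923 and 884 TPM, and the ranges of all 3 overlapped. Acta1, the skeletal muscle alpha-actin of the thin filament, followed at 217 TPM. Tpm2 and Actn3 came next at 99.5 and 97.8 TPM. Acta1, Tpm2 and Actn3 could not be separated, since their ranges overlapped (43.9 to 594, 44.1 to 229 and 76.8 to 138 TPM). Without Cryab, Des and Aldoa the remaining 41 members summed to 373 to 1602 TPM per library.

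**Figure D1:**
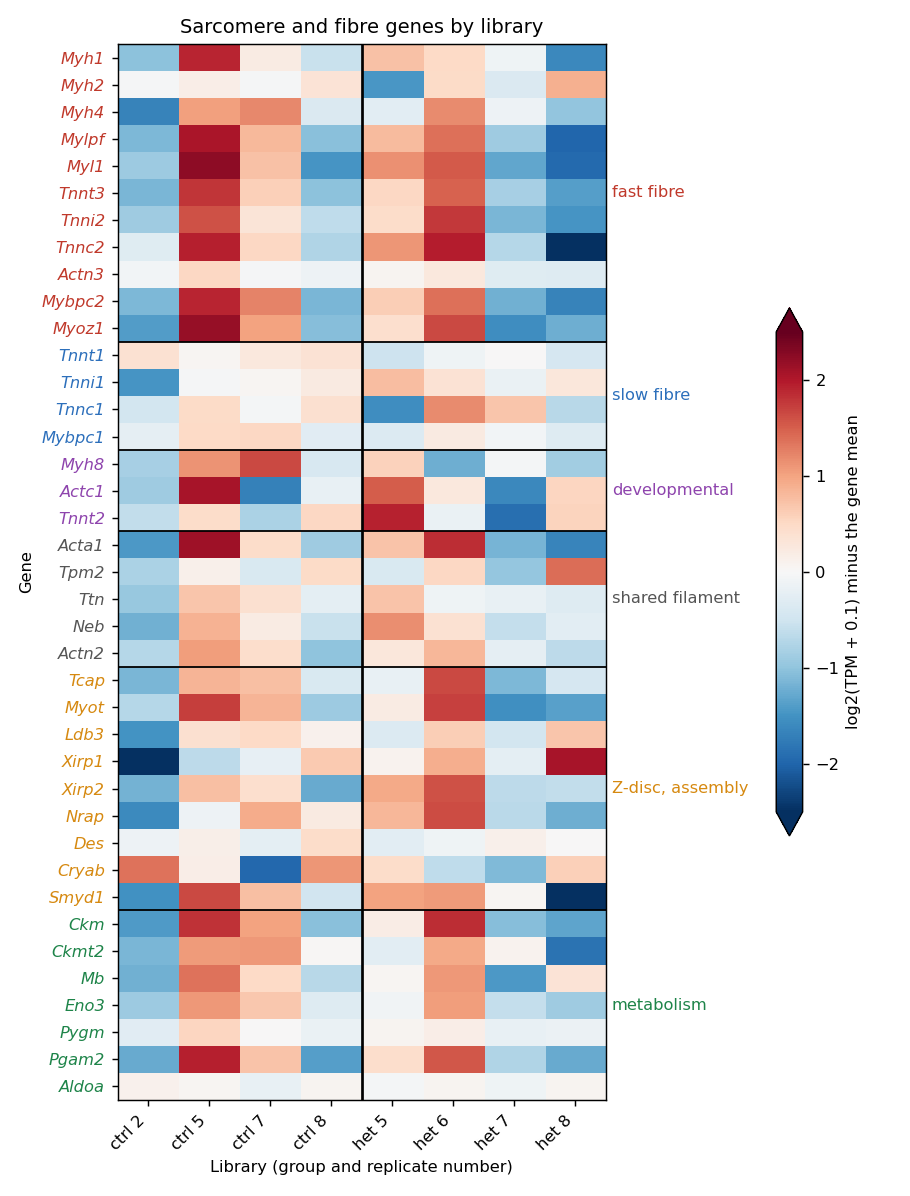
Each row is a tested member and each column a library, with class names at the right. Colour shows log2(TPM + 0.1) minus the member's mean over the 8 libraries, with the scale ending at 2.5 either way. Most fast and metabolic genes were above their mean in control replicate 5 and RhoA het replicate 6 and below it in control replicates 2 and 8 and RhoA het replicates 7 and 8, whereas Actn3, Tnnt1, Mybpc1, Des, Pygm and Aldoa varied little.

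Most members varied several-fold between libraries of the same genotype. Of the 37 members that were tested over 8 libraries and detected in all of them, 30 had a highest TPM at least 4 times the lowest, whereas 17.6% of all genes with values in every library did. Over the 39 tested members the highest TPM lay in control replicate 5 for 16 members, and this library was also the highest for 25.8% of all genes tested. The lowest lay in control replicate 2 for 11 members and in RhoA het replicate 8 for another 11, 8 of them fast genes, and RhoA het replicate 8 was the lowest for 5.02% of all genes tested.

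Acta1 (ENSMUSG00000031972.6; mm39 chromosome 8, 124618508 to 124621490, minus strand) had 50.6, 594, 189 and 74.2 TPM in control and 225, 496, 61.6 and 43.9 TPM in RhoA het. Control replicate 5 and RhoA het replicate 6 were high, RhoA het replicate 5 and control replicate 7 were intermediate, the other 4 libraries were low, and the groups overlapped. In bulk RNA, fewer cells of a type and less RNA per cell cannot be told apart. Its cardiac relative Actc1, the actin used first in developing skeletal muscle, had 3.54, 28.1, 2.01 and 5.85 TPM in control and 19.4, 8.04, 2.12 and 9.71 TPM in RhoA het; its per-library values are given because its pattern differed from that of Acta1, a choice made after they were seen. Actc1 was highest in the 2 libraries numbered 5, and its groups overlapped too.

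The regions upstream of these actin genes are shown because both carry a CArG box, the site bound by serum response factor, a transcription factor whose cofactors of the MRTF family are controlled by RhoA through actin. A CArG box was searched as an exact match of 10 bases: CC, then only A or T, then GG. For comparison the same stretch is shown for Mylpf and Ckm, which followed Acta1 across the libraries and held no exact match. Sites with a mismatch were not searched. Such near matches stand in the stretches of Ckm (ccatacaagg), Acta1 (ccatatacgg) and Actc1 (ccctatatgg), so Ckm is not shown to lack a site. Sequences are RefSeq's for assembly GRCm38.p6, 250 bases ending just before the annotated start and written along the gene's strand; capitals mark CArG boxes and E-boxes (CANNTG, the site class of the myogenic bHLH factors).
Acta1, chr8:123894776-123895025, minus strand: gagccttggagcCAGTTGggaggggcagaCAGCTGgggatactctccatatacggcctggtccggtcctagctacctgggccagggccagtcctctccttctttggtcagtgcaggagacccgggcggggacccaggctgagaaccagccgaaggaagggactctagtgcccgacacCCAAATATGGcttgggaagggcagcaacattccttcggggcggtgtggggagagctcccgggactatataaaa
Actc1, chr2:114052876-114053125, minus strand: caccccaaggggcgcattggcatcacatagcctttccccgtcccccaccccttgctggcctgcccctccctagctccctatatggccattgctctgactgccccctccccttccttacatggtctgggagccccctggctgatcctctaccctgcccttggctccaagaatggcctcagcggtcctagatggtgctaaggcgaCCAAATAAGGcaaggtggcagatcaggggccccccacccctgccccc
Mylpf, chr7:127211358-127211607, plus strand: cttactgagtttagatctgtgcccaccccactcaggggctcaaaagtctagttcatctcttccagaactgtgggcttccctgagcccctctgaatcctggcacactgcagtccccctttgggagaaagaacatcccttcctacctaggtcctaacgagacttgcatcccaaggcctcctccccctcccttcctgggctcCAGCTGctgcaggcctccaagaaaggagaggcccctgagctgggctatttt
Ckm, chr7:19410844-19411093, plus strand: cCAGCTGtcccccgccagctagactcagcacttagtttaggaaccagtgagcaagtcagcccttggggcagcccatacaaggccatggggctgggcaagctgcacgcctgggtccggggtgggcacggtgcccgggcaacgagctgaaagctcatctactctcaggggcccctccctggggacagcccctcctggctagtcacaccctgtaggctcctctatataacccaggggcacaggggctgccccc

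The CArG box ran from 73 to 64 bases before the start in Acta1 and from 47 to 38 bases before it in Actc1. Among the 35 members with an entry in the promoter table, 5 held a CArG box in the 250 bases (14.3%), namely Acta1, Actc1, Myh4, Myl3 and Ldb3, against 1.62% of the 27025 symbols of the table. A MEF2 site was found in 7 of 35 members (20%) and 3.42% of symbols, and an E-box in 30 of 35 (85.7%) and 69.3% of symbols. All 3 motifs were searched as exact patterns on both strands, so near matches were not counted. A match describes letters in this window and not binding. Tnnt3, Tnni2, Actn3, Myoz1, Neb, Tcap, Myot, Xirp1 and Cryab were not matched in the table.

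Among the fast contractile genes, the thick filament light chains and troponins moved with Acta1 from library to library, and Actn3 stood apart as both abundant and even. Mylpf (ENSMUSG00000030672.13; mm39 chromosome 7, 126808062 to 126813470, plus strand), the fast regulatory myosin light chain, had 11.7, 107, 44.8 and 12.4 TPM in control and 44.6, 67.3, 13.9 and 6.43 TPM in RhoA het. Myl1, the fast essential light chain, had 12.04, 108, 37.7 and 8.16 TPM in control and 50.2, 66.5, 9.21 and 5.84 TPM in RhoA het. Tnnt3, the troponin T that holds the fast troponin complex on tropomyosin, had 15.1, 115, 50.4 and 16.4 TPM in control and 47.7, 92.9, 18.8 and 12.9 TPM in RhoA het. In all 3 genes control replicate 5 was highest and RhoA het replicate 6 second, RhoA het replicate 8 was lowest, and the groups overlapped. Actn3, the alpha-actinin of fast-fibre Z-discs, had 91.8, 138, 94.6 and 87.5 TPM in control and 100.4, 116, 77.8 and 76.8 TPM in RhoA het, so its lowest and highest values lay closer together. The other 7 fast genes averaged under 10 TPM. Tnni2, the fast inhibitory troponin, ranged from 2.28 to 22.3 TPM, Myoz1, a Z-disc protein that binds calcineurin, from 1.42 to 20.02 TPM, and Mybpc2, the fast myosin-binding protein C, from 0.709 to 9.53 TPM.

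**Figure D2:**
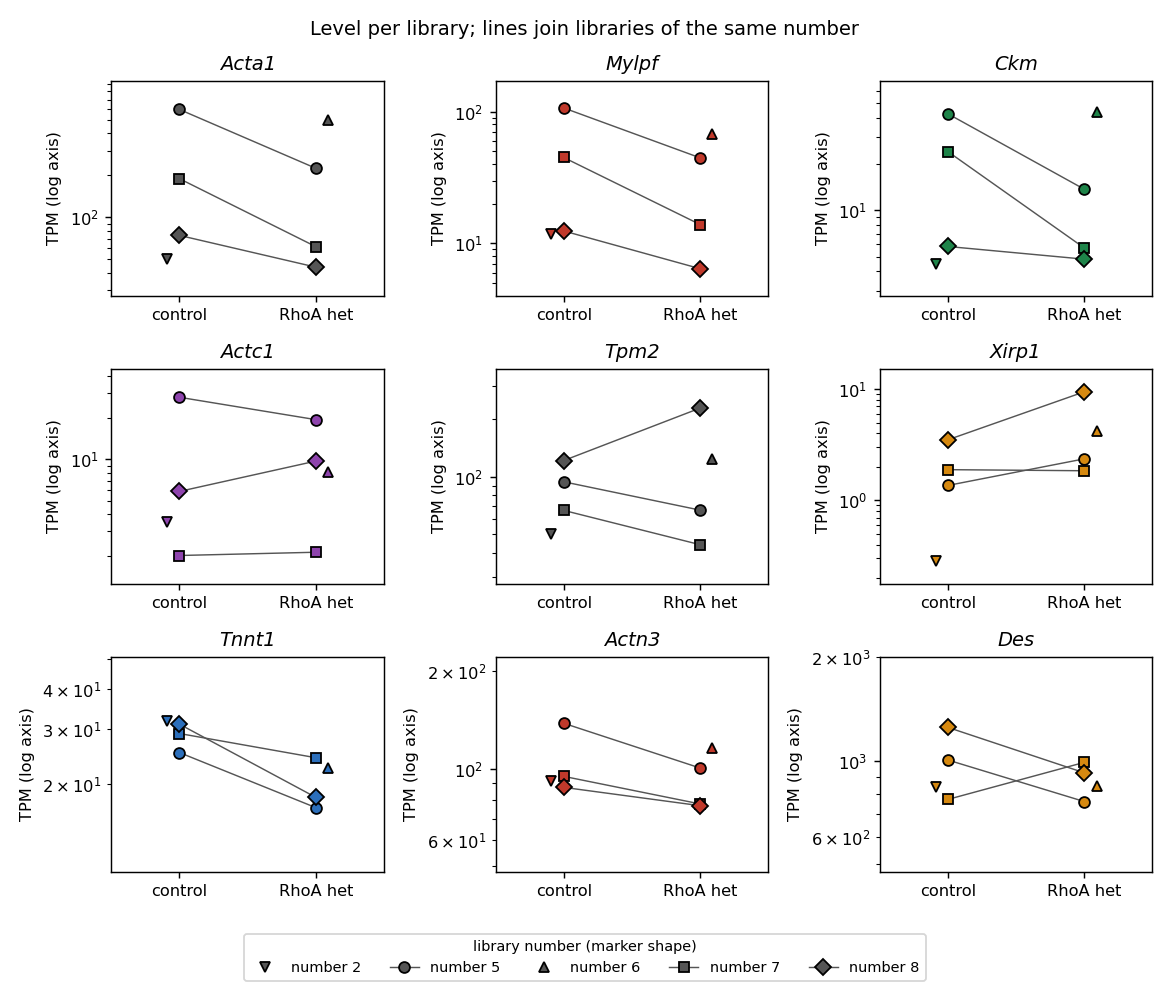
Deposited TPM on a log axis for 9 members, with control libraries at the left and RhoA het libraries at the right of each panel, 1 point per library and lines joining libraries of the same number. The groups overlapped for the other 8 members shown but not for Tnnt1, whose 4 RhoA het values (16.8 to 24.2 TPM) lay below its 4 control values (25.2 to 31.7 TPM).

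The slow isoforms split into 2 genes that were steadily present and others at the edge of detection. Tnnt1, the slow troponin T, had 31.7, 25.2, 28.9 and 31.00 TPM in control and 16.8, 22.4, 24.2 and 18.1 TPM in RhoA het. Mybpc1, the slow myosin-binding protein C, had 16.04, 26.4, 26.9 and 15.4 TPM in control and 14.9, 21.99, 17.9 and 14.97 TPM in RhoA het. The RhoA het values of Tnnt1 all lay below the control values, whereas those of Mybpc1 overlapped with control. A TPM gap of this kind, with RhoA het lower, was found in 1 of 39 tested members and in 0.326% of all genes tested, and the reverse in 0 members and 1.18% of all genes. On the CPM scale (fragments scaled to library size with TMM, edgeR's correction for composition) the Tnnt1 groups overlapped, with control replicate 5 at 15.4 CPM under RhoA het replicate 6 at 15.9 CPM. An exact permutation test of log2 CPM, two-sided, gave p = 0.0857, where the smallest p possible is 0.0286. In edgeR the log2 fold change of Tnnt1 was -0.62 (SE 0.21, 95% confidence interval -1.09 to -0.14), with an unadjusted p of 0.0169 and an adjusted p of 1. Tnnc1, the slow and cardiac calcium-binding troponin, ranged from 0.314 to 2.67 TPM and Tnni1, the slow inhibitory troponin, from 0.227 to 1.45 TPM. Myh7, Myl2, Myl3 and Myoz2 were too sparse to test, with at most 12 fragments in a library.

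Of the 4 developmental isoforms, Actc1 was the only one that averaged more than 1 TPM. Myh3, the embryonic myosin heavy chain, ranged from 0 to 1.24 TPM and was at 0 fragments in control replicate 7 and RhoA het replicate 7, which allows up to 3 fragments in each. Myh8, the perinatal myosin heavy chain, ranged from 0.0124 to 0.722 TPM, and Tnnt2, the cardiac and embryonic troponin T, from 0 to 1.29 TPM. Myog, the factor that starts terminal differentiation, was at 5.29, 124, 11.6 and 13.6 TPM in control and 93.5, 20.04, 13.6 and 9.94 TPM in RhoA het, and Actc1 and Myh3 also had their 2 highest values in the libraries numbered 5. Mymk, which drives myoblast fusion, had its highest values in the same libraries, at 15.5 TPM in control replicate 5 and 11.8 TPM in RhoA het replicate 5, and 0.248 to 3.32 TPM elsewhere. Their part in the developmental values was not tested.

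Within each family, 1 isoform took nearly all of the summed TPM for the light chains, alpha-actinins and actins, and the troponin T and myosin-binding protein C families were mixed. Mylpf made up 98.2% to 100% of Mylpf plus Myl2, and Myl1 made up 96.8% to 100% of Myl1 plus Myl3. Actn3 took 97.3% to 99.1% of the sarcomeric alpha-actinins, and Acta1 took 81.9% to 98.9% of the sarcomeric actins, lowest in RhoA het replicate 8. Among 6 myosin heavy chains the fast Myh4 took 27.6% to 58.6% and the fast Myh1 18.5% to 53.4%. Myh2, of the fast oxidative fibres, took 2.12% to 37.6%, and in RhoA het replicate 8 its share was the largest of the 6. The slow Myh7 took 0% to 5.31%, the embryonic Myh3 0% to 9.60% and the perinatal Myh8 0.164% to 9.47%. These 6 genes are similar in sequence, and fragments that fit several of them were not counted, so their shares are uncertain.

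The balance of fast and slow isoforms shifted between libraries along with Acta1. The slow Tnnt1 took 67.5%, 17.9%, 36.5% and 64.8% of the summed troponin T in control replicates 2, 5, 7 and 8. In RhoA het replicates 5, 6, 7 and 8 it took 25.5%, 19.4%, 56.3% and 57.6%. Its share was thus lowest in control replicate 5 and RhoA het replicate 6, where the fast Tnnt3 was most abundant, while the level of Tnnt1 itself varied only from 16.8 to 31.7 TPM. Mybpc1 behaved similarly, with 73.5% to 95.5% of the myosin-binding protein C total, and Tnni2 took 69.6% to 96.2% of the troponin I total. The mean share of Tnnt1 was 46.7 ± 23.8% in control and 39.7 ± 20.1% in RhoA het (SD, n = 4 each), so the groups differed by less than the spread within them. From control to RhoA het the Tnnt1 share rose in numbers 5 and 7 and fell in number 8. In numbers 5, 7 and 8 the Tnni2 share fell from 96.2% to 86.0%, 90.8% to 80.4% and 81.2% to 69.6%. The Mybpc2 share fell from 26.5% to 20.7%, 18.2% to 5.45% and 6.52% to 4.52%. These differences in share were not tested. The troponin C family is uncertain, since 74% of the exon bases of the fast Tnnc2 overlap Ube2c on the opposite strand and the counting used no strand.

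Of the other shared filament genes, Tpm2, the beta-tropomyosin that winds along actin in skeletal and in smooth muscle, had 50.2, 94.1, 66.7 and 122 TPM in control and 66.9, 124, 44.1 and 229 TPM in RhoA het. Its highest value fell in RhoA het replicate 8, where Acta1 was lowest. The smooth muscle genes Acta2, Myl9 and Myh11 were also highest in that library, with 1316, 1216 and 134 TPM there against at most 1012, 574 and 50.2 TPM in the other 7, and their part in the Tpm2 value was not tested. The giant proteins of the filament lattice were scarce in TPM. Ttn, the elastic titin, ranged from 0.0535 to 0.383 TPM and Neb, nebulin of the thin filament, from 0.363 to 2.28 TPM. Actn2, the alpha-actinin of all fibre types, ranged from 0.832 to 3.72 TPM.

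The Z-disc and assembly genes ranged from the most abundant member, Cryab, to genes that averaged under 1 TPM such as Nrap. Cryab had 3099, 1352, 311 and 2599.8 TPM in control and 1669, 778, 563 and 1817 TPM in RhoA het. Its order over libraries was unlike that of Acta1: the 2 highest values, in control replicates 2 and 8, fell in libraries where Acta1 was low. Des had 840.2, 1005, 772 and 1250.5 TPM in control and 761, 844, 989.5 and 923 TPM in RhoA het, with overlapping groups and little spread. Tcap, the telethonin that caps titin at the Z-disc, had 7.48, 29.8, 27.8 and 12.7 TPM in control and 14.6, 52.3, 7.55 and 12.4 TPM in RhoA het, with RhoA het replicate 6 high. Xirp1, an actin-binding protein of remodelling myofibrils, ranged from 0.285 to 9.45 TPM and peaked in RhoA het replicate 8 as Tpm2 did. Myot, which crosslinks actin at the Z-disc, ranged from 1.15 to 11.9 TPM, and Ldb3, a Z-disc adaptor, from 0.559 to 2.91 TPM. Of Cryab's exon bases 17.0% overlap Hspb2 on the opposite strand.

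Among the metabolic genes, Ckm, Pgam2 and Eno3 followed Acta1 from library to library, whereas Pygm and Aldoa varied little. Ckm, the creatine kinase that buffers ATP in fibres, had 4.45, 42.6, 24.2 and 5.81 TPM in control and 13.7, 43.6, 5.69 and 4.81 TPM in RhoA het. Pgam2, the muscle phosphoglycerate mutase of glycolysis, had 4.87, 45.3, 19.2 and 4.44 TPM in control and 15.9, 34.8, 6.93 and 4.88 TPM in RhoA het. Eno3, the muscle enolase, had 17.7, 70.9, 52.8 and 26.5 TPM in control and 31.3, 69.00, 21.8 and 17.8 TPM in RhoA het. Control replicate 5 and RhoA het replicate 6 held the 2 highest values of all 3 genes, and the groups overlapped. Pygm, the muscle glycogen phosphorylase, varied less, with 37.5, 66.1, 46.1 and 40.8 TPM in control and 47.8, 51.2, 39.9 and 41.1 TPM in RhoA het. Aldoa was nearly even at 954, 911, 773 and 923 TPM in control and 848, 919.5, 823 and 924 TPM in RhoA het; a second identifier with the same symbol held few fragments and was not used. Ckmt2, the mitochondrial creatine kinase, ranged from 1.03 to 8.50 TPM and Mb, the oxygen-binding myoglobin, from 1.00 to 7.46 TPM, and 21.4% of the exon bases of Ckm and 31.9% of those of Mb overlap genes on the opposite strand.

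How closely members kept step was described by the ratio of their TPM to that of Acta1 within a library, over 32 members with more than 3 fragments in every library. The ratio's highest value over the 8 libraries was at most 2.5 times its lowest for 9 of them, although Acta1 itself ranged 13.5-fold. Tnnt3 kept closest at 1.63, followed by Mylpf at 1.75, Pgam2 at 1.88, Myoz1 at 2.03, Tnni2 at 2.05 and Ckm at 2.09. For 10 members the ratio ranged over 10-fold, among them Tpm2 at 32.9, Cryab at 39.0, Myh2 at 43.9 and Xirp1 at 94.0.

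**Figure D3:**
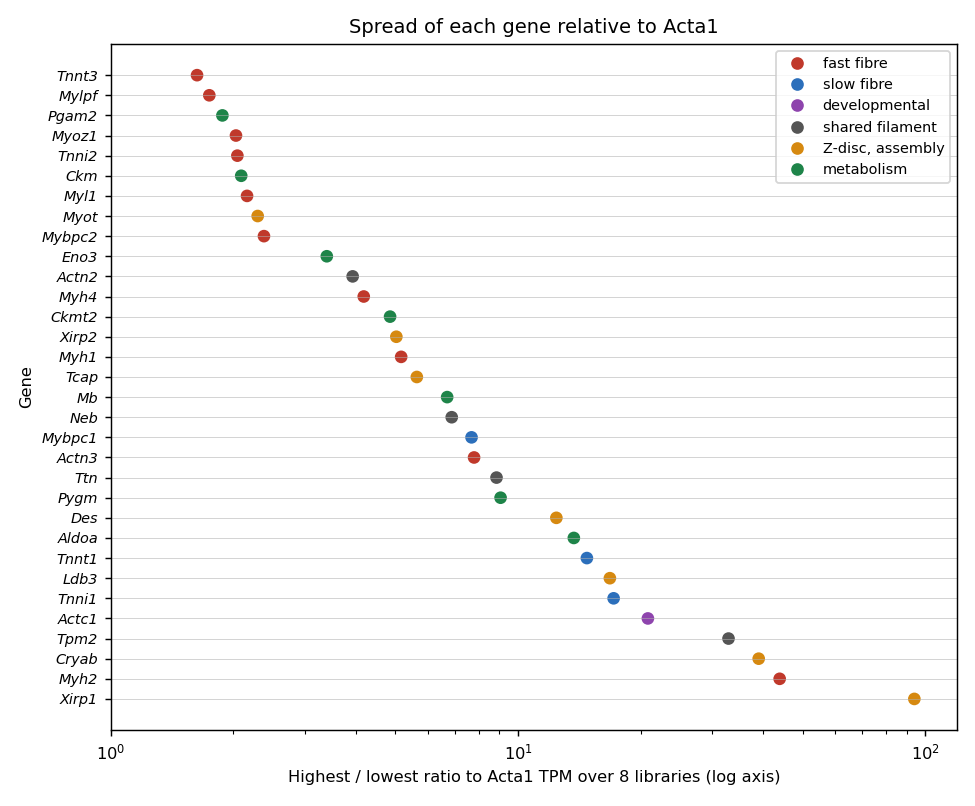
Each point is a member; the log axis gives the highest over the lowest ratio of its TPM to that of Acta1 over the 8 libraries. Fast and metabolic genes such as Tnnt3 (1.63), Mylpf (1.75) and Ckm (2.09) lie at the low end, and Tpm2, Cryab, Myh2 and Xirp1 lie above 30.

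Across all genes ranked by the correlation of their log2 CPM with that of Acta1 over 8 libraries, 12 of the 32 ranked members were among the first 50 of 13463. Tnnt3 was the nearest with Pearson r of 0.992. The 5 nearest genes outside the list were Selenop, a selenium transport protein (r = 0.981), Pvalb, the calcium buffer parvalbumin of fast fibres (0.969), Atp2a1, the calcium pump of the fast sarcoplasmic reticulum (0.963), Car3, a carbonic anhydrase abundant in slow fibres and fat (0.956), and Upp1, a uridine phosphorylase (0.955). Selenop varied little in TPM, from 246 to 419, against 3.28 to 76.3 TPM for Pvalb and 6.33 to 78.4 TPM for Atp2a1. These values are a description over 8 libraries that share one scaling.

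The question of the study, whether expression differs between control and RhoA het cells, was first put to all 8 libraries. No member passed the threshold. The fast genes had a median log2 fold change of -0.24, the slow -0.096, the developmental -0.00018, the shared filament -0.011, the Z-disc 0.17 and the metabolic genes -0.14. Over the 39 members tested, 27 lay below 0 and 12 above, with a median of -0.12, against -0.00071 over all 15660 genes, of which 50.1% lay below 0.

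At an adjusted p under 0.05 in edgeR's quasi-likelihood test, 0 members and 0% of all genes were called, and DESeq2 also called 0. With p unadjusted and under 0.05, 1 of 39 members, Tnnt1, was lower (0.696% of all genes) and 0 were higher (1.68% of all genes). A log2 fold change of -1 or lower was found for 1 member, Myh8, and for 0.498% of all genes. Acta1 averaged 227 ± 252 TPM in control and 206 ± 209 TPM in RhoA het (SD, n = 4 each), and its log2 fold change was -0.050 (SE 0.86, 95% confidence interval -1.98 to 1.88). The intervals were wide: for 30 of 39 members the standard error exceeded the size of the fold change. The narrowest were those of Pygm, at -0.14 (SE 0.15, 95% confidence interval -0.48 to 0.21), and Aldoa, at -0.12 (SE 0.17, 95% confidence interval -0.50 to 0.26). The members' median depended on single libraries. It was 0.40 without control replicate 5 and -0.60 without RhoA het replicate 6, and the log2 fold change of Acta1 was 0.93 and -1.06 in the same fits.

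Replicate numbers 5, 7 and 8 occur in both groups, and within these pairs most members were lower in RhoA het. For Acta1 the log2 differences, RhoA het over control in CPM, were -1.36, -1.61 and -0.87 in pairs 5, 7 and 8. For Mylpf they were -1.21, -1.67 and -1.04, for Tnnt3 -1.22, -1.41 and -0.46 and for Eno3 -1.14, -1.27 and -0.69. Of the 39 members tested in these 6 libraries, 20 were lower in RhoA het in all 3 pairs, against 12.5% of all genes, and 0 were higher in all 3, against 13.7%. The 20 comprised 9 of 10 fast genes, 2 slow (Tnnt1 and Mybpc1), 1 developmental (Myh8), 1 shared filament (Acta1), 3 Z-disc (Tcap, Myot and Smyd1) and 4 metabolic genes (Ckm, Ckmt2, Eno3 and Pygm).

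**Figure D4:**
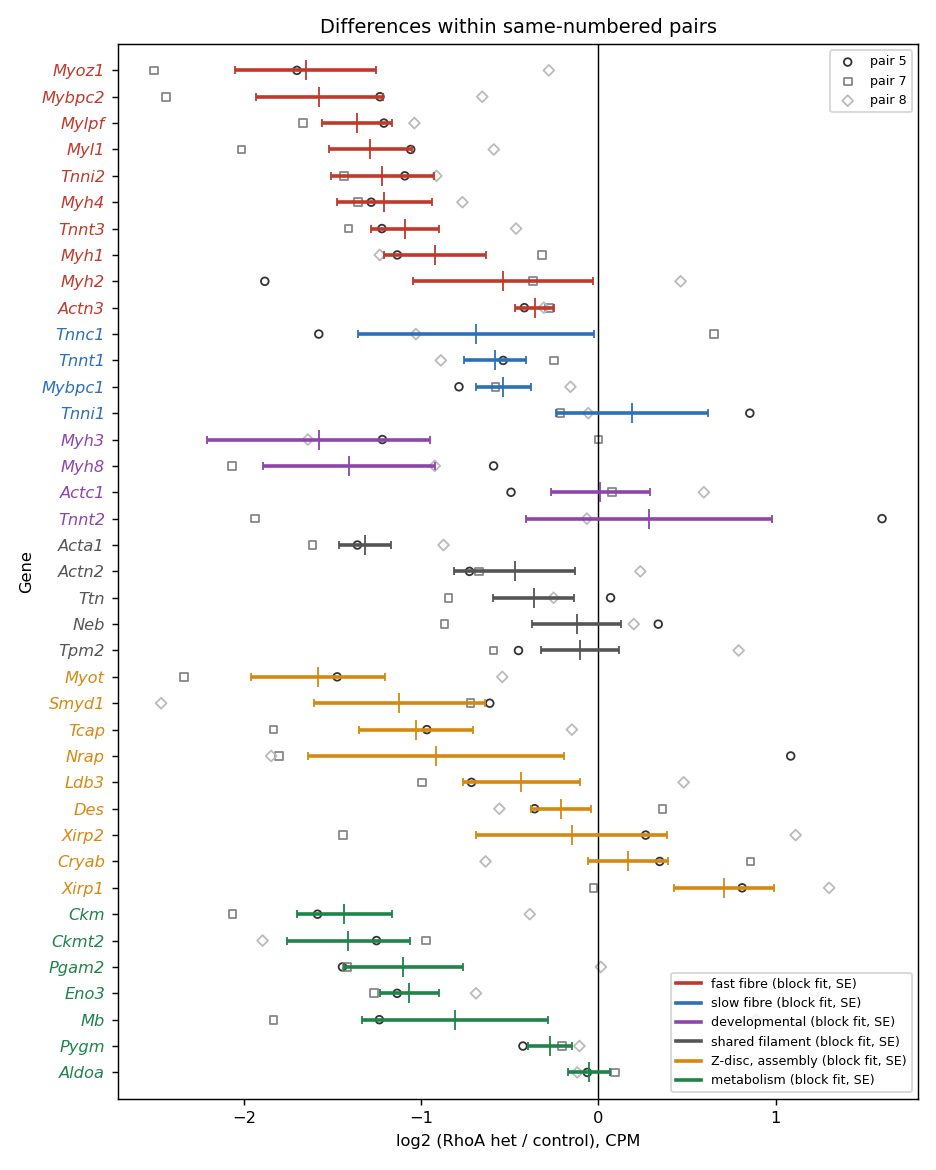
Log2 difference in CPM, RhoA het over control, for each tested member: open symbols are the pairs numbered 5, 7 and 8, and the coloured tick and bar give the fitted log2 fold change with the replicate block and its SE, with a line at 0. The points of 9 of 10 fast genes lie below 0 in all 3 pairs, while Actc1, Tpm2, Cryab, Des and Aldoa have points on both sides.

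Whether these differences pass a test depended on the use of the replicate number as a block, which removes what same-numbered libraries share. Without it, edgeR called 0 members and 0% of all genes over the 6 libraries, with 8 members lower at an unadjusted p under 0.05 (0.751% of all genes) and 0 higher (1.02% of all genes). Of the 39 members 34 had a log2 fold change below 0, as did 54.2% of all genes. With the replicate block it called 1 member, Acta1, whose log2 fold change was -1.32 (SE 0.15, adjusted p 0.0275), against 0.0127% of all 15714 genes. The other called gene was Atp2a1, at -1.40 (SE 0.17) with an adjusted p of 0.0349 in edgeR. The members next in order were Mylpf at -1.36 (SE 0.20), Eno3 at -1.07 (SE 0.17) and Tnnt3 at -1.09 (SE 0.19), with adjusted p of 0.0834, 0.0907 and 0.128.

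The calls with the block were sensitive to single pairs and to the tool. Without the libraries numbered 5 the adjusted p of Acta1 was 0.547 in edgeR, and without those numbered 7 or 8 it was 0.0153 and 1.12e-08. The log2 fold change of Acta1 in these fits was -1.27, -1.15 and -1.47. Without the libraries numbered 5, 7 or 8, edgeR called 0, 9 and 113 genes in all, of which 0, 1 and 12 were members. DESeq2 with the block called 41 genes, 6 of them members, and edgeR without a filter on low counts called 139 genes, 14 of them members.

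Described by their medians with the block, the fast genes stood at -1.21, the metabolic genes at -1.07, the developmental genes at -0.70, the slow genes at -0.56, the Z-disc genes at -0.44 and the shared filament genes at -0.37. Several of these medians depended on 1 pair: without the libraries numbered 5 the slow genes stood at -0.27, and without those numbered 8 at -0.37. Without the libraries numbered 7 the developmental genes stood at -0.43, the Z-disc genes at -0.23 and the shared filament genes at -0.10. All 39 tested members had a median of -0.81, against -0.021 over all genes, and 34 lay below 0, as did 53.8% of all genes. At an unadjusted p under 0.05, 22 members were lower, against 2.28% of all genes. In the other direction 1 member, Xirp1, was higher at 0.71 (SE 0.28), against 2.98% of all genes. Its value was 0.40 without the libraries numbered 8, which include its highest level, and 1.08 without those numbered 7. A log2 fold change of -1 or lower was found for 17 of the 39 members and for 0.885% of all genes. The comparison over 8 libraries shares these 6 and adds control replicate 2 and RhoA het replicate 6, which held 50.6 and 496 TPM of Acta1. By their Y-linked and Xist counts both added libraries were male and these 6 female. Differences between the class medians were not tested.

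Genes of related function that were not on the list gave a mixed picture. Of 45 other sarcomere and actin-filament genes, 41 were tested in the 6 libraries, 0 were called with the block, and 3 were lower and 5 higher in all 3 pairs; their median was -0.034. Those with an unadjusted p below 0.05 were 1 lower, Tmod4, a cap of thin filament ends, at -2.32 (SE 0.52), and 4 higher, among them Mylk2, the skeletal myosin light chain kinase, at 0.98 (SE 0.17). Of 37 genes of fibre calcium handling, glycolysis and mitochondrial energy supply, 36 were tested, 1 was called (Atp2a1), and 9 were lower and 2 higher in all 3 pairs, with a median of -0.10. Atp2a1 had 13.2, 78.4, 41.3 and 12.96 TPM in control and 35.4, 52.4, 11.5 and 6.33 TPM in RhoA het. Pvalb had 8.91, 76.3, 27.5 and 11.2 TPM in control and 38.3, 60.8, 9.60 and 3.28 TPM in RhoA het and a log2 fold change of -1.40 (SE 0.24) with the block (edgeR adjusted p 0.112). The abundant enzymes of general glycolysis stayed close to 0: Pkm was at -0.048 (SE 0.13), Ldha at -0.024 (SE 0.13) and Gapdh at -0.096 (SE 0.12). Over all 8 libraries edgeR called 0 genes in both lists.

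Markers of other cells also varied between libraries. Of 10 endothelial markers, 10 were highest in RhoA het replicate 6, where Acta1 was second highest, and the list summed to 42.3 to 122 TPM in control and 83.5 to 460.5 TPM in RhoA het. Erythroid genes summed to 8.68 to 623 TPM in control and 12.1 to 1284 TPM in RhoA het, with all 4 tested genes highest in that library. Collagen and other fibro-adipogenic genes summed to 4208 to 9183 TPM in control and 6792 to 8916 TPM in RhoA het. Of these 10 genes 3 were highest in control replicate 5, 3 in RhoA het replicate 6, 2 in RhoA het replicate 8 and 1 each in control replicates 2 and 8. Mural genes summed to 1419 to 2392 TPM in control and 1714 to 3124 TPM in RhoA het, with 5 of 8 highest in RhoA het replicate 8. Acta1 was lowest in that library. The erythroid sum was lowest in control replicate 5, at 8.68 TPM, where Acta1 was highest, and second highest in control replicate 7, at 623 TPM. Immune genes summed to 304 to 826 TPM in control and 226 to 808 TPM in RhoA het, mostly Lyz2, and Adgre1, Itgam and Cd3e were at 0 in some libraries. Schwann cell genes summed to 162 to 284 TPM in control and 169.6 to 359 TPM in RhoA het. Of the heart markers, Myh6, Myl7 and Nppa were at 0 in some libraries and at most 0.517 TPM. Among the 18 listed stem cell genes, 9 had a log2 fold change below 0 and 9 above over 8 libraries, with a median of 0.0053; Pax7 was at -0.51 (SE 0.18, 95% confidence interval -0.90 to -0.11), with an unadjusted p of 0.0173 and an adjusted p of 1 in edgeR. The part of such cells, or of fibre RNA carried into the sort, in the members' values was not tested. In the 6 libraries of the pairs, which leave out RhoA het replicate 6, all 4 erythroid genes tested lay below 0, with a median log2 fold change of -2.30 without and -1.47 with the block, and edgeR called 0 of them. With the block 1 erythroid gene was lower and 3 of 10 fibro-adipogenic genes were higher at an unadjusted p under 0.05.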

How the data were processed

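Total RNA was extracted with Trizol and made into cDNA libraries with a low-input template-switching kit, per the labels' protocols. The authors deposited fragment counts per gene, counted by featureCounts 1.6.4 on read pairs and exons of GENCODE mouse release 34 on mm39 from STAR alignments, per the file headers. That command used neither strand nor multi-mapping or overlap options, so fragments that fit several genes were not counted. The authors also deposited TPM, and recomputing them from counts and gene lengths gave the same values. The counting command named 10 alignment files; libraries other than the 8 described were not analysed here. Symbols came from GENCODE identifiers without version, which named 51884 of 57180 genes.

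The members and the other lists were chosen with earlier results of these data known. Counts were compared with edgeR 4.0.16 (R 4.3.3; filterByExpr, TMM, quasi-likelihood F test, Benjamini-Hochberg over all genes tested, called at an adjusted p under 0.05), once over 8 libraries and once over the 6 libraries numbered 5, 7 and 8. Over 8 libraries 5 members, Myh7, Myl2, Myl3, Myoz2 and Myh3, did not pass the filter; over 6, Tnnc2 did not and Myh3 did. Adjusted p-values in the text are from these fits unless DESeq2 (1.42.0) is named. Standard errors were derived from the F statistic. CPM uses TMM-scaled library sizes, and log2 CPM a prior count of 2. Exact permutation tests were two-sided over 70 assignments. The edgeR fits were also run on simulated counts, drawn independently per gene with a fixed dispersion and no replicate effect. Such counts lack the joint variation of the members, so these runs do not show how the tests behave on them. Depth was 19138763 to 25606342 fragments per library; counts carry no molecular identifiers, and limits from 0 counts cover counting error only.

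Replicate numbers come from the titles, and the labels do not say what they mark. Deviations of same-numbered libraries from their group means correlated at 0.574, 0.349 and 0.501 for numbers 5, 7 and 8, so the numbers were taken to pair the libraries. This rests on the data and not on the labels. The correlations came from the same libraries that the block fit tests, and those between different numbers are not given here. They are thus no independent support for the pairing. Values in every library are given for members averaging at least 10 TPM or past the threshold; from other members up to 3 a class are given by range, and from other lists the genes past a threshold, the most abundant or the defining markers. Genes named outside this rule were chosen after their values were seen. Promoter stretches and their motif counts come from RefSeq on GRCm38.p6, and gene coordinates from the count table on mm39.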

Additional observations from a re-analysis of the deposited data

Results flagged for a closer look

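In 4 of 78 groups of 4 libraries tested, 1 library stood apart from the other 3 by Dixon's criterion (its gap to the nearest library took most of the group's whole range); chance gives about 1 in 20, or 3.9. These were Actn3 in control replicate 5 at 138 TPM, Actc1 in control replicate 5 at 28.1 TPM, Ttn in RhoA het replicate 5 at 0.383 TPM and Tcap in RhoA het replicate 6 at 52.3 TPM.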

How the results depend on the processing

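Over all 8 libraries 0 genes and 0 members were called under each alternative (DESeq2's size factors or total counts in place of TMM, the DESeq2 Wald test, a minimum mean of 10 counts, or every gene unfiltered) and without each library in turn. Without a library the log2 fold change of Acta1 ranged from -1.06 to 0.93 and changed sign without control replicate 5 and RhoA het replicates 7 and 8, that of Aldoa from -0.21 to 0.020, that of Tnnt1 from -0.75 to -0.47 and the median of the members tested from -0.60 to 0.40. Of the 39 members 28 changed sign in at least 1 of these fits, and Tnnt1 and Pygm did not.

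For the libraries numbered 5, 7 and 8, calls were 0 without the replicate block under each scaling, filter and tool. The replicate block gave 2 calls, 1 of them a member, also with DESeq2's size factors (2 and 1), against 4 and 1 with total counts without TMM, a setting added after the data were seen. It gave 139 calls and 14 members without a filter, and 41 calls and 6 members with the DESeq2 Wald test. With the block, leaving out the libraries numbered 5, 7 or 8 gave 0, 9 and 113 calls, of which 0, 1 and 12 were members, and without the block 0 to 0. In the edgeR fit over all genes tested, the block changed the call of no other member. Its adjusted p for Acta1 was 0.0456 with DESeq2's size factors and 0.0296 with total counts. Without a number and without the block, the log2 fold change of Acta1 ranged from -1.41 to -1.30 and the median of the members from -0.88 to -0.63. Actc1, Cryab, Neb and Tpm2 had the opposite sign with the block, at values between -0.12 and 0.19, and Tnnt2 did so with the block in DESeq2 (-0.098); the cause was not tested. Depth limits all but Ttn of the 12 members averaging under 1 TPM. Ttn is long and held 1342 fragments over the 8 libraries, whereas the others of the 12 held 16 to 248.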

Other observations

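Of the 44 members, 18 share exon bases with annotated genes of the opposite strand, whose fragments a count without strand cannot separate. The largest shares were 74% for Tnnc2, 31.9% for Mb and 21.4% for Ckm; Acta1, Mylpf, Myl1, Tnnt3, Actn3 and Eno3 share none.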
